A study of Mus musculus with 12 samples.

Results

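C2C12 is an established mouse muscle cell line that can be fused into myotubes, and RNA from such fully differentiated myotubes was sequenced after treatment with one or the other of a pair of vitamin D metabolites. A culture given olanzapine (1 μM) with calcifediol (10 μM) was set directly against a culture given olanzapine (1 μM) with calcitriol (0.1 μM), over every gene that reached a TPM (the deposited FPKM rescaled to a constant sum) of at least 1 in any of the 4 C2C12 libraries. Of 16908 genes listed for C2C12 cells, 12124 passed. The other C2C12 libraries came from olanzapine (1 μM) alone and from vehicle, and they are given beside the compared pair to show where each value lay without a vitamin D metabolite. The co-treated cultures had 24 h of pre-exposure to the metabolite and 12 h with metabolite and olanzapine together. The olanzapine culture had 24 h of vehicle before 12 h of the drug, and the vehicle culture was kept for 36 h in all. Olanzapine, an antipsychotic drug, was thus present on both sides of the comparison. The whole series holds 12 libraries, with the same 4 treatments in primary hepatocytes and primary adipocytes of the mouse.

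Vitamin D acts through the vitamin D receptor, a nuclear receptor that binds DNA as a heterodimer with the retinoid X receptor and switches target genes on or off. Calcifediol is the circulating form, hydroxylated on the side chain. Calcitriol is the hormonal form, which carries an additional hydroxyl group on the A ring and binds the receptor with the higher affinity. Receptor signalling limits itself through Cyp24a1, the 24-hydroxylase that degrades both metabolites. Calcifediol is also known for a second activity that does not need the receptor, in which it makes the cell degrade SCAP, the escort protein of the sterol-sensing SREBP transcription factors. The doses differed 100 times, so an effect of the molecule and an effect of its dose cannot be told apart. Each side was 1 library of 1 culture, and a difference between the cultures that has nothing to do with the metabolites cannot be told apart from them either.

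The 4 C2C12 libraries held 17441990 counts with calcifediol, 17994295 with calcitriol, 17865033 with olanzapine alone and 18401986 with vehicle. The 10 genes written down as markers of striated muscle were all expressed, and their counts together were 431264 with calcifediol, 473079 with calcitriol, 428479 with olanzapine alone and 436953 with vehicle. Markers of hepatocytes, of which 2 of 7 were listed, summed to 3 with calcifediol, 1 with calcitriol, 1 with olanzapine alone and 3 with vehicle. Those of endothelial cells, with 6 of 7 listed, summed to 11 with calcifediol, 15 with calcitriol, 3 with olanzapine alone and 9 with vehicle. Macrophage markers, with 8 of 9 listed, summed to 131 with calcifediol, 75 with calcitriol, 41 with olanzapine alone and 52 with vehicle, and 4 of those listed had no count with calcifediol and 5 had none with calcitriol. Of these sums Cd68, a lysosomal protein that other cells also make, gave 124 counts with calcifediol, 69 with calcitriol, 33 with olanzapine alone and 42 with vehicle. Fibroblast markers, with 8 of 8 listed, summed to 188719 with calcifediol, 210282 with calcitriol, 154059 with olanzapine alone and 157687 with vehicle, nearly all of it from collagen genes that myoblasts express as well. Adipocyte markers, with 4 of 7 listed and 2 of these at 0 in all 4 libraries, summed to 143 with calcifediol, 201 with calcitriol, 172 with olanzapine alone and 235 with vehicle. Nearly all of that sum came from the only adipocyte marker that passed the filter, with 142, 201, 172 and 235 counts in the same order. Markers of osteoblasts and chondrocytes, with 6 of 8 listed, summed to 1629 with calcifediol, 1589 with calcitriol, 1421 with olanzapine alone and 1387 with vehicle.

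Each log2 ratio below is the count with calcifediol over the count with calcitriol after scaling to the library totals, so a positive value means higher with calcifediol, and the interval behind it is the exact 95% interval of the 2 counts. These intervals cover counting error only. A gene was called when the libraries differed at least 2-fold and an Audic-Claverie test on the reads gave an FDR of at most 0.05 over the 12124 genes. That test compares the reads of 2 libraries and not the conditions, so no p-value is given. A gene was named close when its whole 95% interval lay within 1.5-fold in both directions.

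Most genes stood within 1.5-fold of each other with either metabolite. The median log2 ratio was 0.00 with an SD of 0.48 over genes, and the central 95% of genes lay between -0.94 and 0.82. Of the 12124 genes, 8775 (72.4%) were close. For 5699 genes (47.0%) the interval did not hold zero, so many close genes still differed beyond counting error. Called genes numbered 365 (3.01%), of which 152 were higher and 213 lower with calcifediol. Of the 365, 88 differed at least 4-fold and 28 at least 8-fold. A further 108 genes were more than 2-fold apart without passing the FDR. Olanzapine alone against vehicle, the pair of C2C12 libraries with no vitamin D metabolite, gave 38 called genes (0.313%), 9943 close genes (82%) and an SD of 0.33 over the same 12124 genes. In that pair the interval did not hold zero for 2780 genes (22.9%). The spread between the metabolites was thus wider than the spread across an olanzapine treatment measured in the same way. The balance of the 2 directions was nearly the same with library totals, TMM factors and median-of-ratios size factors. Of the called genes 41.6%, 40.1% and 40.4% were higher, in this order. It changed when a single gene set the scale. With the ribosomal gene Rplp0 held equal in place of the library totals, the median of all genes moved by -0.26 and the called genes split into 96 higher and 446 lower, so that 17.7% of them were higher, against 41.6% with library totals. Ratios below are on library totals, and small positive ones of under 0.26 turn negative on that other scale. Among the members of the lists described below, 12 genes called higher were not called on the Rplp0 scale: Adam23, Bst2, Ccl25, Ero1l, Fabp4, Hmox1, Igfbp4, Inhbb, Irf7, Itgb7, Tap1 and Tgfbr3. Another 45 members were called lower on that scale and not on library totals.

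Whether a gene could be close depended on its depth. With equal counts on both sides, 104 counts in the 2 libraries together were needed for an interval inside 1.5-fold, and 1194 genes had fewer. None of these was close, and 189 of them (15.8%) were called. A gene this shallow could pass the filter through the library where it is high, so that share depends on the filter as well. Among the 10930 genes with enough counts, 8775 (80.3%) were close and 176 (1.61%) were called. Among the 3955 genes with at least 2000 counts together, 95.2% were close and 26 (0.66%) were called. At the edge of the expression filter, Abhd15 and Serpinb6c entered with a highest TPM of 1.01 each, and Mrvi1 and Mlf1 stayed out with 0.99 each.

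**Figure D1:**
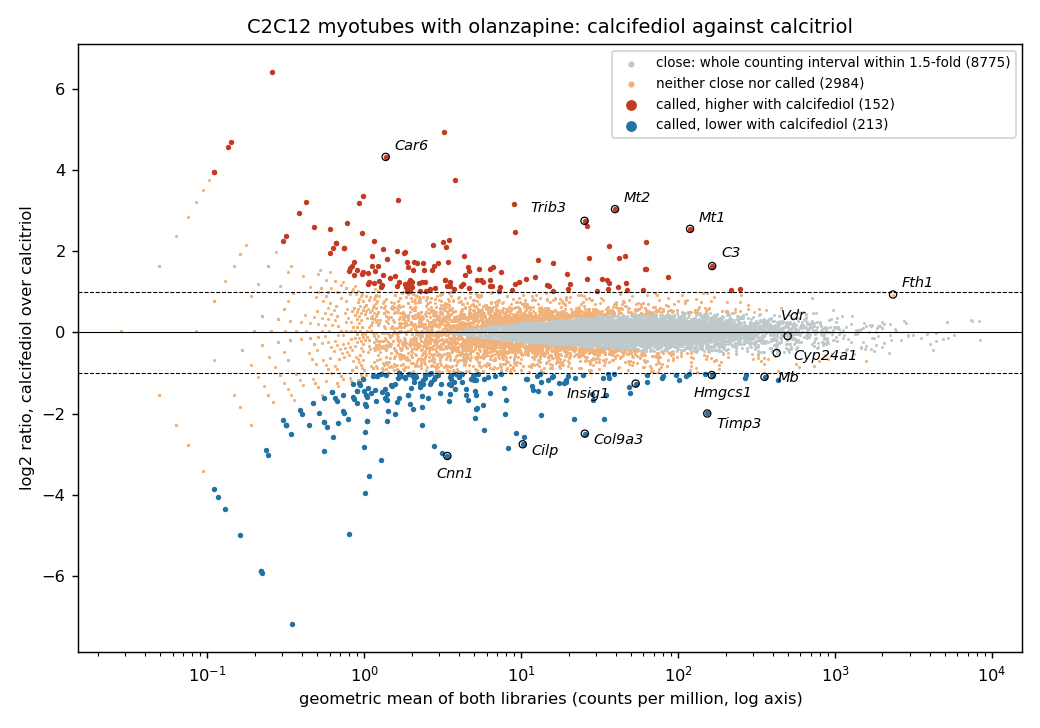
Log2 ratio of calcifediol over calcitriol (vertical axis) against the geometric mean of both libraries in scaled counts (horizontal axis, log scale) for 12124 genes of C2C12 myotubes. Each point is a gene, dashed lines mark 2-fold, 152 red points were called higher and 213 blue points lower with calcifediol, and the 8775 grey points were close. The cloud narrows toward highly expressed genes, where Vdr and Cyp24a1 lie inside the 2-fold lines while Mt1, Mt2, C3 and Timp3 lie outside.

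In all, 40 lists of genes by function were described, with 1136 distinct members among the genes tested. Of these members 39 were called higher and 41 lower with calcifediol (7.04%, beside 3.01% of all genes), and 752 (66.2%) were close. In 12 lists no member was called, which sets a short list apart little when 3.01% of all genes were called. In 27 lists the median log2 ratio lay within 0.2 of zero. The lists with medians below -0.2 were the cholesterol synthesis enzymes, mitosis, DNA replication, collagen chains, smooth muscle contractile genes and the sarcomere list. Those above 0.2 on library totals were chemokines, acute-phase proteins, the NRF2 antioxidant response, the ATF4 stress response, ER chaperones, and lysosome and autophagy, and the interferon-stimulated genes. The mean and the median of a list differed in sign only for the lists of metal genes, integrins and laminins, calcium and mineralization, C/EBP and KLF factors, and AP-1 genes, all with medians within 0.1 of zero. Where a list had more called members than the 4 that the naming rule takes, the others were named after their values were seen.

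**Figure D2:**
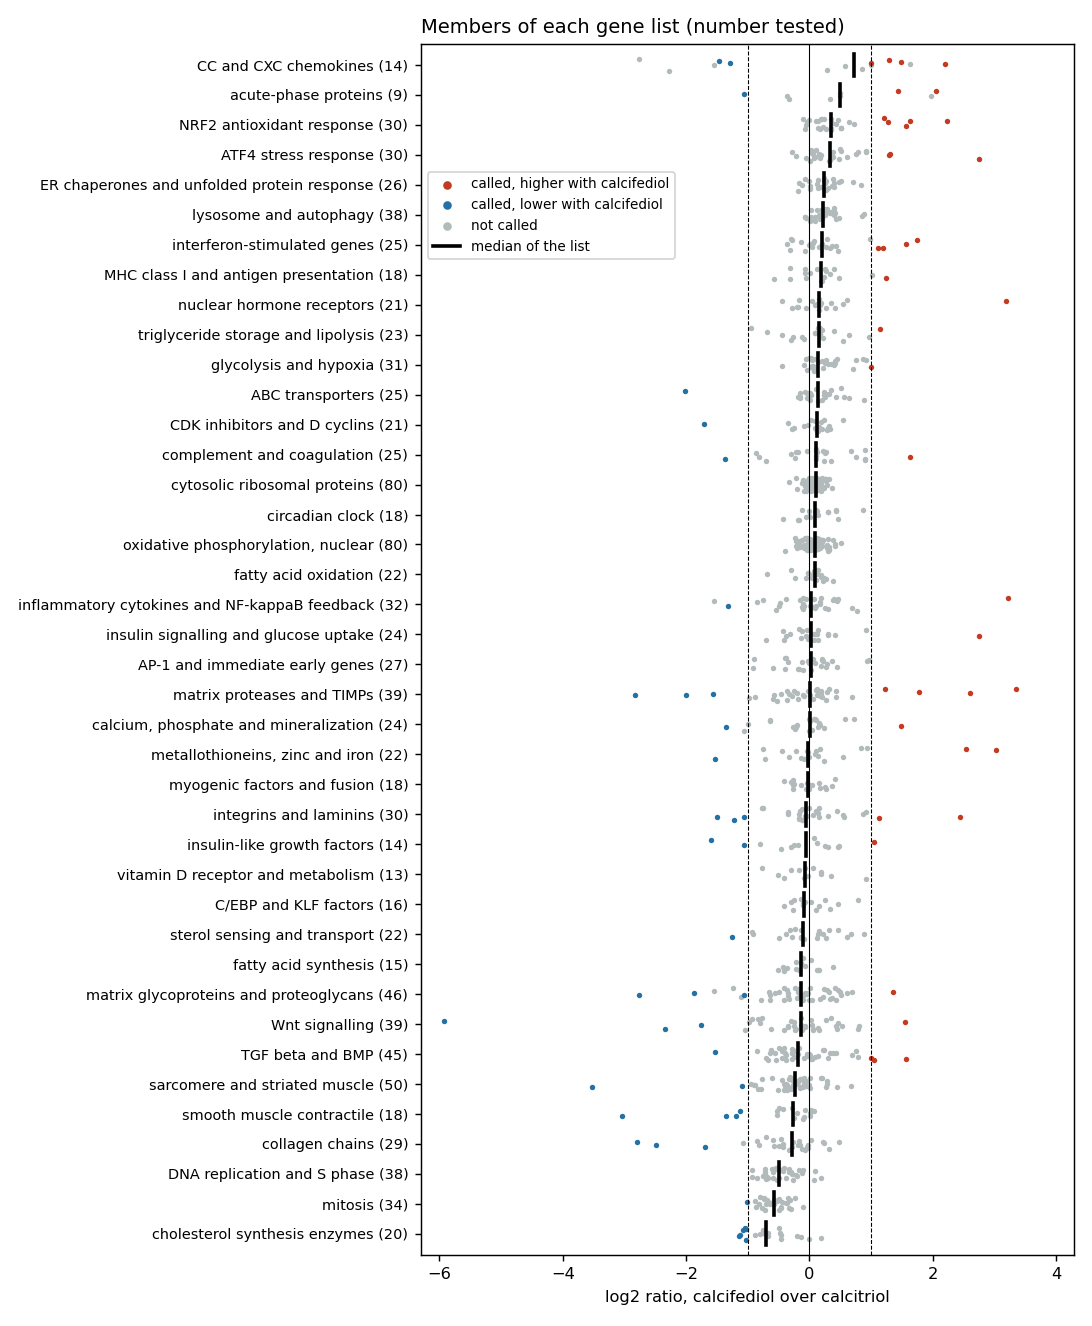
Members of 40 gene lists (rows, with the number of genes tested in brackets) by their log2 ratio of calcifediol over calcitriol (horizontal axis). Each point is a gene, red points were called higher and blue points lower with calcifediol, grey points were not called, black bars are list medians and dashed lines mark 2-fold. Medians run from 0.72 for chemokines at the top to -0.70 for cholesterol synthesis enzymes at the bottom, and most grey points lie near zero. The point farthest left is Sfrp5, whose position depends on the pseudocount because it has no count with calcifediol.

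The receptor pathway itself was close in most members. None of the 13 genes tested for the vitamin D receptor and vitamin D metabolism was called, beside 3.01% of all genes. Of the 13, 11 were close (84.6%, beside 72.4% of all genes), and the median log2 ratio was -0.07. Cyp24a1 had 6193 counts with calcifediol, 9096 with calcitriol, 0 with olanzapine alone and 1 with vehicle. It was at or next to zero without a metabolite and abundant with either. The ratio was -0.51 (-0.56 to -0.46), lower with calcifediol but inside the limits for a close gene on library totals. When scaled to Rplp0 it was -0.77, which is past the 1.5-fold limit. Vdr, the receptor, had 8411 counts with calcifediol, 9240 with calcitriol, 1939 with olanzapine alone and 2034 with vehicle, at -0.09 (-0.13 to -0.05). Both co-treated libraries stood well above the libraries without a metabolite, and close to each other. S100g, the calcium-binding protein calbindin-D9k and a textbook receptor target, had 18 counts with calcifediol, 32 with calcitriol, 0 with olanzapine alone and 0 with vehicle, too few for more than an interval of -1.71 to 0.09. Cyp27b1, which makes calcitriol from calcifediol, had 28 counts with calcifediol, 15 with calcitriol, 21 with olanzapine alone and 16 with vehicle, and its interval of -0.01 to 1.96 held zero. The RefSeq promoter table covered 9 of these genes, and none of the 9 windows held a DR3 repeat (direct repeat of half-sites with 3 bases between, searched on both strands), which 0.044% of all promoters in the table held. With a pattern this rare a match in 9 windows was unlikely from the outset, so no conclusion is drawn from its absence.

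Cholesterol synthesis had the lowest median of the 40 lists. The pathway builds sterols from acetyl-CoA by way of mevalonate, farnesyl diphosphate, squalene and lanosterol, and its genes are switched on together by SREBP2 when membrane sterol is low. Of 20 enzymes tested, 6 (30.0%, beside 3.01% of all genes) were called, all of them lower, and 4 were close. The median log2 ratio was -0.70 beside 0.00 over all genes, 19 of 20 ratios were below zero, and for 16 the whole interval was below zero. Summed over the 20 enzymes, the counts were 17980 with calcifediol, 31284 with calcitriol, 35710 with olanzapine alone and 37098 with vehicle. The calcitriol library thus lay near the libraries without a metabolite, and the calcifediol library below all others.

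Hmgcs1, which makes HMG-CoA at the head of the pathway, had 1980 counts with calcifediol, 4233 with calcitriol, 4493 with olanzapine alone and 4962 with vehicle, a ratio of -1.05 (-1.13 to -0.97). Idi1, which isomerizes isopentenyl diphosphate, had 426 counts with calcifediol, 954 with calcitriol, 1276 with olanzapine alone and 1490 with vehicle, at -1.12 (-1.29 to -0.95). Fdps, the farnesyl diphosphate synthase, had 1812 counts with calcifediol, 3800 with calcitriol, 4817 with olanzapine alone and 4906 with vehicle, at -1.02 (-1.10 to -0.94). In these genes the calcifediol library was the lowest of the 4 and the other 3 were nearer to each other. Lss, which closes squalene epoxide into lanosterol, had 437 counts with calcifediol, 916 with calcitriol, 1198 with olanzapine alone and 1178 with vehicle, at -1.02 (-1.19 to -0.86). Cyp51, the lanosterol demethylase, had 1341 counts with calcifediol, 2916 with calcitriol, 3581 with olanzapine alone and 4148 with vehicle, at -1.08 (-1.17 to -0.98). Nsdhl, which helps to remove the C4 methyl groups, had 924 counts with calcifediol, 2092 with calcitriol, 2346 with olanzapine alone and 2214 with vehicle and the lowest ratio of the list, -1.13 (-1.25 to -1.02). All 6 lay just past the 2-fold line, and only for Nsdhl was the whole interval past it. Fdft1, the squalene synthase, had 1675 counts with calcifediol, 3196 with calcitriol, 3722 with olanzapine alone and 3556 with vehicle and stayed inside it at -0.89 (-0.97 to -0.80).

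The other enzymes had ratios nearer to zero and were not called. Hsd17b7 was at -0.80, Msmo1 at -0.75, Acat2 at -0.73, Mvd at -0.67, Sqle at -0.67, Pmvk at -0.50, Tm7sf2 at -0.48, Sc5d at -0.46 and Mvk at -0.45 on the log2 scale, with the whole interval below zero in each. Lbr, a sterol reductase of the nuclear envelope, was close at -0.21. Also close were Ggps1, which leads into isoprenoids other than sterols, at -0.13, Ebp at -0.01, and Dhcr7, the last reductase on the way to cholesterol, at 0.19 with 1257 counts with calcifediol, 1135 with calcitriol, 1314 with olanzapine alone and 1298 with vehicle. These 4 were close, and Dhcr7 was the enzyme with a ratio above zero.

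**Figure D3:**
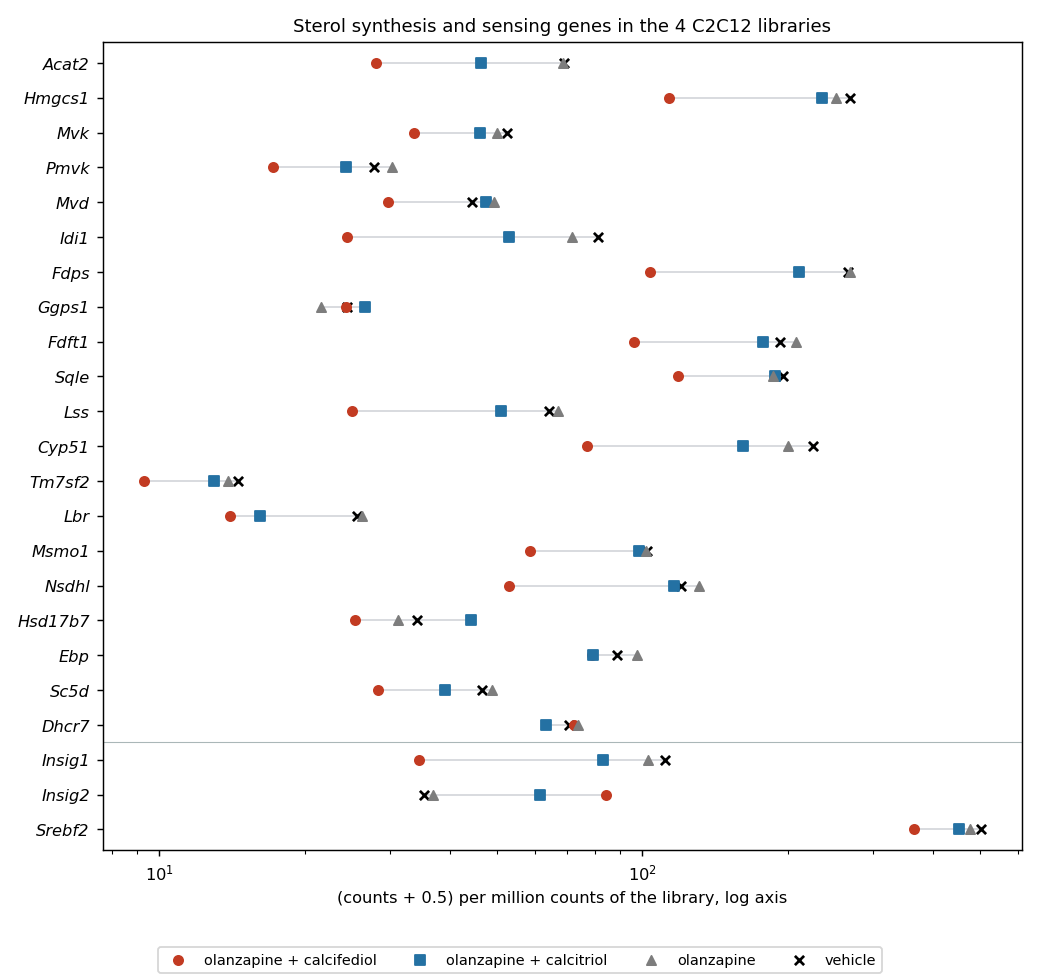
Levels of 20 cholesterol synthesis enzymes and 3 sterol-sensing genes (rows) in the 4 C2C12 libraries, as counts plus 0.5 scaled to the library total (horizontal axis, log scale), 1 library a symbol. Red circles (calcifediol) are the leftmost symbol in most enzyme rows, with blue squares (calcitriol) near olanzapine and vehicle. Insig2 has the opposite order, with calcifediol at the right, and the circle of Ebp lies under its square.

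Among 22 sterol sensing and transport genes, 1 was called lower, none higher and 14 were close (median -0.11). That gene was Insig1, which retains the SREBP precursors in the endoplasmic reticulum and is itself an SREBP target, with 602 counts with calcifediol, 1490 with calcitriol, 1840 with olanzapine alone and 2056 with vehicle, at -1.26 (-1.40 to -1.12). Insig2, its relative with the same anchoring role, had 1471 counts with calcifediol, 1105 with calcitriol, 658 with olanzapine alone and 649 with vehicle. Both co-treated libraries were above the libraries without a metabolite, and the ratio between them, 0.46 (0.34 to 0.57), was close by the limits set. Srebf2, which encodes SREBP2, was close with 6371 counts with calcifediol, 8168 with calcitriol, 8518 with olanzapine alone and 9239 with vehicle, at -0.31 (-0.36 to -0.27). Stard4, a sterol carrier, had 340 counts with calcifediol, 670 with calcitriol, 647 with olanzapine alone and 702 with vehicle, at -0.93 (-1.13 to -0.74). Fatty acid synthesis, the branch led by SREBP1, was close in 14 of 15 genes with none called and a median of -0.13. There Scd2, a stearoyl-CoA desaturase, had 17863 counts with calcifediol, 24596 with calcitriol, 25818 with olanzapine alone and 27259 with vehicle and was close at -0.42, while Fads2, a desaturase of polyunsaturated fatty acids, had 1173 counts with calcifediol, 1723 with calcitriol, 2957 with olanzapine alone and 3025 with vehicle, at -0.51 (-0.62 to -0.40).

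The promoter of Hmgcs1 is shown because it is the single one of 17 enzymes with a promoter in the RefSeq table (5.88%, beside 1.35% of all tested genes with a promoter) that held the sterol regulatory element searched, TCACNCCAC, on either strand. The window is 250 bases before to 50 after the start, and the stretch printed lies upstream of it, at chr13:119690174-119690262 of GRCm38.p6, plus strand, with the match in capitals.
Hmgcs1: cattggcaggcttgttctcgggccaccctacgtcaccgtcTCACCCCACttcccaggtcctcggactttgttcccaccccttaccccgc

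Genes for metal binding and for defence against oxidants and electrophiles held large differences in the other direction. Metallothioneins are small cysteine-rich proteins that bind zinc and copper and that zinc, through the factor MTF1, switches on. Mt2 had 1973 counts with calcifediol, 248 with calcitriol, 355 with olanzapine alone and 311 with vehicle, a ratio of 3.03 (2.85 to 3.23) or 8.19-fold. Mt1, its neighbour on chromosome 8, had 5013 counts with calcifediol, 884 with calcitriol, 811 with olanzapine alone and 695 with vehicle, at 2.55 (2.45 to 2.65) or 5.85-fold. For both, the calcifediol library stood alone, while calcitriol was a little below olanzapine and vehicle for Mt2 and a little above them for Mt1. Of the 22 tested genes for metallothioneins, zinc and iron Mt1 and Mt2 were those called higher, 1 was called lower and 15 were close, at a median of -0.02. The lower gene was Slc30a2, a zinc exporter into vesicles, with 52 counts with calcifediol, 156 with calcitriol, 0 with olanzapine alone and 4 with vehicle. Fth1, the heavy chain of the iron store ferritin, was the gene of the list with the most counts. It had 56276 counts with calcifediol, 30441 with calcitriol, 37462 with olanzapine alone and 33554 with vehicle, at 0.93 (0.91 to 0.95), just inside 2-fold.

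The sequences upstream of both metallothionein genes are shown with their metal response elements (TGCACNC or TGCGCNC, on either strand) in capitals, a search added after the values were seen. Windows of 9 among 17 genes of the list held a match (52.9%), beside 40.8% of all tested genes, so the short motif sets the list apart little. The stretches lie on the plus strand of GRCm38.p6 at chr8:94179046-94179088 and chr8:94172375-94172594.
Mt1: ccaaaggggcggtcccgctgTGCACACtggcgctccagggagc
Mt2: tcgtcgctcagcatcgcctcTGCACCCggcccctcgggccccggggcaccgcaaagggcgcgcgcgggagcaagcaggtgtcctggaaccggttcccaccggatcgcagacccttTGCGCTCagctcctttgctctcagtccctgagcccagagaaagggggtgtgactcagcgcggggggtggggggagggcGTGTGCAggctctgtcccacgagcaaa

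NRF2 is the transcription factor that is released from KEAP1 by oxidants and electrophiles and drives glutathione and detoxification genes. Of 30 genes written down for it, 5 (16.7%, beside 3.01% of all genes) were called, all of them higher, and 19 were close. The median was 0.34, with 25 of 30 ratios above zero and 23 with the whole interval above zero, on library totals. When scaled to Rplp0 the median was 0.08. Gsta4, which conjugates lipid aldehydes to glutathione, had 2360 counts with calcifediol, 519 with calcitriol, 212 with olanzapine alone and 233 with vehicle, at 2.23 (2.09 to 2.37). Gstm1, a further glutathione transferase, had 1861 counts with calcifediol, 649 with calcitriol, 848 with olanzapine alone and 941 with vehicle, at 1.56 (1.44 to 1.70). Slc7a11, the cystine importer, had 85 counts with calcifediol, 28 with calcitriol, 54 with olanzapine alone and 58 with vehicle, at 1.63 (1.02 to 2.32). Nqo1, the quinone reductase, had 142 counts with calcifediol, 60 with calcitriol, 101 with olanzapine alone and 98 with vehicle, at 1.28 (0.84 to 1.75). Hmox1, which degrades haem, had 1229 counts with calcifediol, 546 with calcitriol, 579 with olanzapine alone and 548 with vehicle, at 1.21 (1.07 to 1.36), and was 1 of the genes no longer called when scaled to Rplp0 (0.95). In Gstm1, Slc7a11 and Nqo1 the calcitriol library was also the lowest of the 4, so their ratios came from both sides, whereas for Gsta4 the calcitriol library was above the libraries without a metabolite.

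Of the other members 19 were close and 6 were neither called nor close. These 6 had ratios above zero, with Gclm at 0.73, Srxn1 at 0.64, Prdx6 at 0.52, Blvrb at 0.51, Abcc4 at 0.51 and Osgin1 at 0.47. Nfe2l2, which encodes NRF2, had 2652 counts with calcifediol, 2312 with calcitriol, 2206 with olanzapine alone and 2320 with vehicle and was close at 0.24, and Keap1 had 957 counts with calcifediol, 1019 with calcitriol, 1007 with olanzapine alone and 1136 with vehicle and was close at -0.05, both picked for their role after the values were seen. Gclm, the modifier subunit of the enzyme that makes the glutathione precursor, had 414 counts with calcifediol and 257 with calcitriol, while Gclc, the catalytic subunit, had 424 counts with calcifediol and 387 with calcitriol and was close at 0.18. Gpx4, Prdx1 and Gpx1, the close members with the most counts, were at 0.36, 0.14 and 0.15. The antioxidant response element TGACNNNGC, searched on both strands and added after the values were seen, stood in 9 of 23 promoters of the list (39.1%), beside 16.8% of those of all tested genes. None of the 5 called members was among the 9 with a match. How many of these 5 were among the 23 with a promoter was not counted. The window holds only bases near the start, and elements farther away were not searched. No conclusion is therefore drawn from the absence of a match in the called members. Gclm is shown as a member with a match, at chr3:122245398-122245456 of GRCm38.p6, plus strand. Its match reads on the opposite strand.
Gclm: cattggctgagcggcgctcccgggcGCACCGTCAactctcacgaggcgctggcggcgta

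Glutathione S-transferases as a family, a list made after the values were seen, had 4 of 15 tested genes called higher (26.7%, beside 3.01% of all genes), none lower and a median of 0.55. Besides Gsta4 and Gstm1 these were the alpha-class genes Gsta1, with 373 counts with calcifediol, 69 with calcitriol, 15 with olanzapine alone and 31 with vehicle, and Gsta2, with 242 counts with calcifediol, 18 with calcitriol, 11 with olanzapine alone and 4 with vehicle. The calcitriol library was also above the libraries without a metabolite for both, though by few counts for Gsta2. Gsta1 and Gsta2 are nearly identical copies on chromosome 9, so the split of reads between them is uncertain. The abundant pi-class gene Gstp1 had 12988 counts with calcifediol, 9409 with calcitriol, 6132 with olanzapine alone and 6001 with vehicle and was close at 0.51. Further detoxification enzymes were among the genes with the largest ratios. Aldh3a1, an aldehyde dehydrogenase, had 890 counts with calcifediol, 258 with calcitriol, 92 with olanzapine alone and 88 with vehicle, at 1.83 (1.63 to 2.04). Cyp2f2, a cytochrome P450, had 1380 counts with calcifediol, 397 with calcitriol, 16 with olanzapine alone and 4 with vehicle, at 1.84 (1.68 to 2.01). Akr1b7, an aldo-keto reductase, had 62 counts with calcifediol, 16 with calcitriol, 0 with olanzapine alone and 1 with vehicle, at 1.97 (1.19 to 2.89).

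Stress genes under ATF4, the factor made when translation is throttled by amino acid lack or by unfolded protein, held a few called members. Of 30 tested, 3 (10%, beside 3.01% of all genes) were called, all of them higher, and 19 (63.3%, beside 72.4% of all genes) were close. The median of this list was 0.34, or 0.08 when scaled to Rplp0. Trib3, a pseudokinase that binds AKT, had 1141 counts with calcifediol, 175 with calcitriol, 214 with olanzapine alone and 157 with vehicle, at 2.75 (2.52 to 2.99) or 6.71-fold. Ddit3, the factor CHOP, had 888 counts with calcifediol, 371 with calcitriol, 234 with olanzapine alone and 203 with vehicle, at 1.30 (1.13 to 1.48). Chac1, which breaks down glutathione, had 960 counts with calcifediol, 403 with calcitriol, 510 with olanzapine alone and 461 with vehicle, at 1.30 (1.13 to 1.47). Slc6a9, a glycine transporter, had 1758 counts with calcifediol, 957 with calcitriol, 586 with olanzapine alone and 597 with vehicle and stayed inside 2-fold at 0.92. Atf4 itself had 7127 counts with calcifediol, 7323 with calcitriol, 8445 with olanzapine alone and 8009 with vehicle and was close at 0.01, and the tRNA synthetases Gars and Aars were close at 0.15 and 0.17. Gdf15, a stress-induced hormone of the TGF beta family, had 1827 counts with calcifediol, 638 with calcitriol, 592 with olanzapine alone and 433 with vehicle, at 1.56 (1.43 to 1.70). Among ER chaperones and genes of the unfolded protein response, none of 26 was called and 22 were close (84.6%, beside 72.4% of all genes). Of the ratios 21 were above zero, and the median was 0.24, or -0.02 when scaled to Rplp0. There Sdf2l1, a chaperone partner, had 445 counts with calcifediol and 258 with calcitriol (0.83), and Hspa5, the chaperone BiP, 13329 counts with calcifediol and 11625 with calcitriol (0.24).

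**Figure D4:**
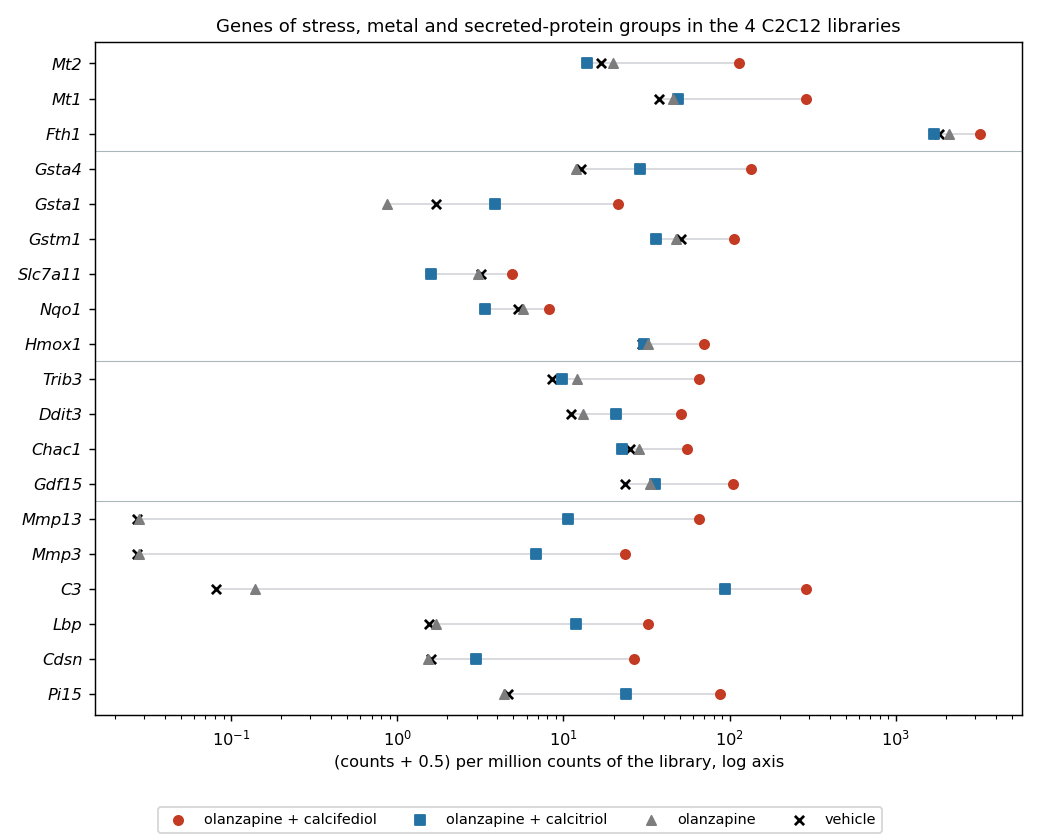
Levels of metal, glutathione, stress and secreted-protein genes (rows) in the 4 C2C12 libraries, as counts plus 0.5 scaled to the library total (horizontal axis, log scale), 1 library a symbol. Red circles (calcifediol) are rightmost in every row shown. Blue squares (calcitriol) lie near olanzapine and vehicle for Mt1, Mt2, Hmox1, Trib3 and Chac1, and between them and calcifediol for Gsta4, Mmp13, C3, Lbp and Pi15.

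Several secreted defence proteins and proteases stood above the libraries without a metabolite with either treatment, and higher with calcifediol. C3, the central complement component, had 5046 counts with calcifediol, 1679 with calcitriol, 2 with olanzapine alone and 1 with vehicle, at 1.63 (1.55 to 1.71). It was all but missing from the libraries without a metabolite. Mmp13, a collagenase, had 1133 counts with calcifediol, 191 with calcitriol, 0 with olanzapine alone and 0 with vehicle, at 2.61 (2.39 to 2.84). Mmp3, the protease stromelysin-1, had 411 counts with calcifediol, 123 with calcitriol, 0 with olanzapine alone and 0 with vehicle, at 1.78 (1.49 to 2.09). Mmp10, its close relative, had 54 counts with calcifediol, 5 with calcitriol, 0 with olanzapine alone and 2 with vehicle, at 3.35 (2.17 to 5.16). These 3 lie in the same cluster on chromosome 9. Lbp, which presents bacterial lipopolysaccharide, had 563 counts with calcifediol, 215 with calcitriol, 30 with olanzapine alone and 28 with vehicle, at 1.43. The marker counts of macrophages given above, which ran the same way, and of hepatocytes, which stayed at 3 or fewer in each library, stand beside these values, and their part in the result was not tested.

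The lists these genes belong to were mixed. Of 39 matrix proteases and TIMPs, 4 were called higher and 3 lower (17.9%, beside 3.01% of all genes), and 19 were close (median 0.01). Adam23, the remaining higher gene, had 62 counts with calcifediol and 27 with calcitriol. Timp3, an inhibitor of these proteases that sits in the matrix, was the abundant gene among the lower ones. It had 1335 counts with calcifediol, 5504 with calcitriol, 8489 with olanzapine alone and 9609 with vehicle, at -2.0 (-2.09 to -1.91), and it lies within the locus of Syn3, which was not among the genes tested. Adamts8 had 6 counts with calcifediol and 47 with calcitriol and Adamts17 23 counts with calcifediol and 71 with calcitriol. Timp2, Mmp2 and Mmp14 were close at -0.19, 0.19 and -0.36.

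Of 25 complement and coagulation genes, 1 was called higher (C3), 1 lower and 14 were close (median 0.11). The lower one, Clu, had only 11 counts with calcifediol and 30 with calcitriol, and was no longer called on TPM (-0.99). Of 9 acute-phase proteins, 2 were called higher and 1 lower (33.3%, beside 3.01% of all genes), with few counts in most. Orm3, which has near-identical copies, had 46 counts with calcifediol and 11 with calcitriol, and Itih3, which contributes to hyaluronan complexes, had 29 counts with calcifediol, 63 with calcitriol, 1 with olanzapine alone and 2 with vehicle. Of 14 chemokines, 4 were called higher and 2 lower (42.9%, beside 3.01% of all genes), none was close and the median was 0.72. These genes had a median of 33.5 counts in the 2 libraries together. Among all tested genes with fewer than 104 counts together, 15.8% were called, a share that also depends on the filter, and none was close. Ccl7, which attracts monocytes, had 171 counts with calcifediol, 72 with calcitriol, 23 with olanzapine alone and 35 with vehicle, at 1.29 (0.89 to 1.71). Cxcl16, a chemokine that also exists in a membrane-bound form, had 24 counts with calcifediol and 5 with calcitriol. Ccl9 had 28 counts with calcifediol and 10 with calcitriol, and Ccl25 had 55 counts with calcifediol and 28 with calcitriol. Of the called chemokines, Ccl7 alone had more than 100 counts in the 2 libraries together. Cxcl12, not called, had 6979 counts with calcifediol, 4824 with calcitriol, 899 with olanzapine alone and 915 with vehicle, at 0.58 (0.52 to 0.63). Cx3cl1, also not called, had 1066 counts with calcifediol, 550 with calcitriol, 870 with olanzapine alone and 943 with vehicle, at 0.999 (0.85 to 1.15). Cxcl14 had 25 counts with calcifediol, 64 with calcitriol, 427 with olanzapine alone and 394 with vehicle and was low in both co-treated libraries, the more so with calcifediol. Cxcl13 had 6 counts with calcifediol and 18 with calcitriol.

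Inflammatory cytokines and NF-kappaB feedback genes had 1 of 32 called higher and 1 lower, 16 close and a median of 0.03. Il1rn, the interleukin-1 receptor antagonist, had 22 counts with calcifediol, 2 with calcitriol, 43 with olanzapine alone and 37 with vehicle. Ptgs2, the inducible cyclooxygenase, had 128 counts with calcifediol, 330 with calcitriol, 326 with olanzapine alone and 398 with vehicle, at -1.32 (-1.63 to -1.02). For Il1rn calcitriol was the lowest of the 4 libraries, and for Ptgs2 calcifediol. Interferon-stimulated genes had 4 of 25 called higher (16%, beside 3.01% of all genes), none lower and 9 close. Their median was 0.20, and -0.06 when scaled to Rplp0. Of the 25, 18 had 104 or more counts in the 2 libraries together, and Bst2 was the called gene among them. Below that depth 15.8% of all tested genes were called. Oasl2 had 27 counts with calcifediol, 8 with calcitriol, 127 with olanzapine alone and 113 with vehicle. Irf7, the interferon regulatory factor, had 49 counts with calcifediol, 23 with calcitriol, 36 with olanzapine alone and 42 with vehicle. Bst2, which tethers virions, had 112 counts with calcifediol, 50 with calcitriol, 85 with olanzapine alone and 93 with vehicle, and Dhx58 had 24 counts with calcifediol and 8 with calcitriol. Bst2, Irf7 and Dhx58 with calcifediol lay within 2-fold of the libraries without a metabolite, and calcitriol was the lowest of the 4. Tap1, the peptide transporter and the 1 called gene of 18 for MHC class I, had the same order, with 65 counts with calcifediol, 28 with calcitriol, 66 with olanzapine alone and 76 with vehicle.

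Contractile genes of the smooth muscle type held a group that was lower with calcifediol. These genes, under serum response factor, are also used by activated fibroblasts and by myoblasts. Of 18 tested, 4 (22.2%, beside 3.01% of all genes) were called, all of them lower, and 14 were close, with a median of -0.27. Cnn1, calponin, had 20 counts with calcifediol, 174 with calcitriol, 471 with olanzapine alone and 507 with vehicle, at -3.04 (-3.82 to -2.40). Tagln, transgelin, had 3130 counts with calcifediol, 7054 with calcitriol, 16567 with olanzapine alone and 16903 with vehicle, at -1.13 (-1.19 to -1.07). Actg2, a smooth muscle actin, had 531 counts with calcifediol, 1403 with calcitriol, 4297 with olanzapine alone and 4300 with vehicle, at -1.36 (-1.50 to -1.21). Myl9, a myosin light chain, had 1171 counts with calcifediol, 2745 with calcitriol, 4310 with olanzapine alone and 4453 with vehicle, at -1.18 (-1.28 to -1.08). All 4 had the same order of libraries, with calcifediol lowest, calcitriol next and both libraries without a metabolite highest. In bulk RNA, fewer cells of a type (here, or of dividing cells in the mitosis list) and less of a message per cell cannot be told apart. Acta2, the smooth muscle alpha-actin, shared the order with 25359 counts with calcifediol, 35013 with calcitriol, 73881 with olanzapine alone and 75415 with vehicle and was close between the metabolites at -0.42. The CArG box, the element of serum response factor, stood in 4 of 16 promoters of the list, beside 1.65% of those of all tested genes. The promoter of Myl9, the called gene among the 4, is shown with the box in capitals, which reads as a CArG box on both strands, at chr2:156775278-156775337 of GRCm38.p6, plus strand.
Myl9: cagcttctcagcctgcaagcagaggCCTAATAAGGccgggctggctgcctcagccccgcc

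Matrix genes had single called members and fewer close members than the genes at large. Of 46 matrix glycoproteins and proteoglycans, 1 was called higher and 3 lower (8.70%, beside 3.01% of all genes). Of the 46, 24 were close (52.2%, beside 72.4% of all genes), at a median of -0.13. Cilp, a cartilage and tendon matrix protein that binds TGF beta, had 68 counts with calcifediol, 477 with calcitriol, 6980 with olanzapine alone and 7107 with vehicle, at -2.76 (-3.15 to -2.40). Both co-treated libraries were far below the others here. Fmod, fibromodulin, had 47 counts with calcifediol, 178 with calcitriol, 1351 with olanzapine alone and 1413 with vehicle, at -1.86 (-2.37 to -1.41), with the same order. Vcan, versican, had 3248 counts with calcifediol, 6995 with calcitriol, 11254 with olanzapine alone and 12593 with vehicle, at -1.06. Fbln1, fibulin-1, was the higher one, with 2406 counts with calcifediol, 969 with calcitriol, 774 with olanzapine alone and 702 with vehicle, at 1.36. Fn1, fibronectin, Sparc and Bgn were close at -0.19, -0.16 and -0.08.

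Among 29 collagen chains, 3 were called lower (10.3%, beside 3.01% of all genes) and none higher. Of the 29, 16 were close (55.2%, beside 72.4% of all genes), at a median of -0.29 (24 of 29 ratios below zero). Col9a3, a chain of cartilage collagen IX, had 186 counts with calcifediol, 1084 with calcitriol, 1 with olanzapine alone and 7 with vehicle, at -2.49 (-2.73 to -2.27). It was nearly missing without a metabolite and stood higher with calcitriol. Col23a1, a transmembrane collagen, had 18 counts with calcifediol, 132 with calcitriol, 14 with olanzapine alone and 26 with vehicle and was likewise high with calcitriol. Col10a1, known from hypertrophic cartilage, had 33 counts with calcifediol, 111 with calcitriol, 216 with olanzapine alone and 274 with vehicle. Col3a1, Col1a1 and Col1a2, the chains with the most counts, were close at -0.08, -0.15 and -0.04. Col5a1, a chain of fibrils, had 21465 counts with calcifediol and 36084 with calcitriol and was not close at -0.70, nor were Col16a1 at -0.85 and Col12a1 at -0.57. Of 30 integrins and laminins, 2 were called higher and 3 lower (16.7%, beside 3.01% of all genes). Itga11, a collagen receptor, had 962 counts with calcifediol, 2077 with calcitriol, 1590 with olanzapine alone and 1787 with vehicle. Lamb3 had 65 counts with calcifediol, 190 with calcitriol, 532 with olanzapine alone and 548 with vehicle, and Lama3, its partner chain in laminin-332, had 220 counts with calcifediol, 529 with calcitriol, 12 with olanzapine alone and 21 with vehicle, so the order of the other libraries was opposite in these partners. Itgb2, an integrin of leukocytes, had 39 counts with calcifediol, 7 with calcitriol, 4 with olanzapine alone and 2 with vehicle, and Itgb7 had 47 counts with calcifediol and 22 with calcitriol.

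**Figure D5:**
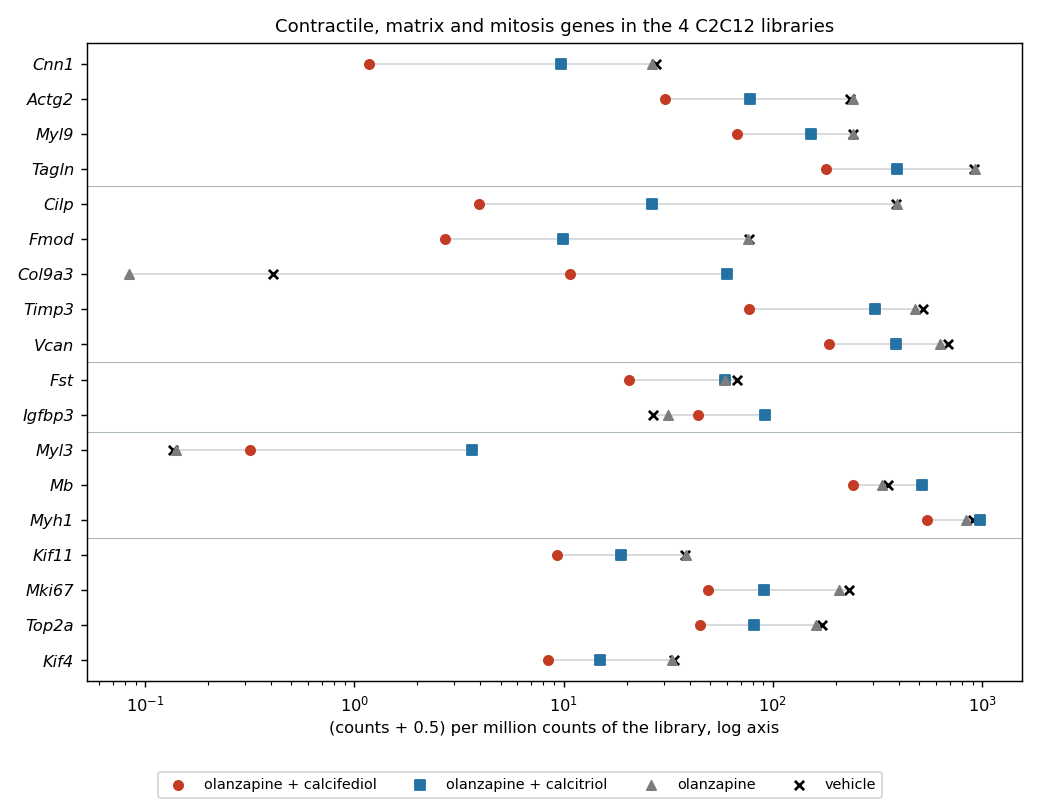
Levels of smooth muscle, matrix, growth factor, sarcomere and mitosis genes (rows) in the 4 C2C12 libraries, as counts plus 0.5 scaled to the library total (horizontal axis, log scale), 1 library a symbol. Red circles (calcifediol) are leftmost except for Col9a3, Igfbp3 and Myl3, where calcitriol is rightmost. For smooth muscle and mitosis genes the blue squares (calcitriol) lie between calcifediol and the libraries without a metabolite.

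Secreted regulators of growth and patterning held single strong differences. Of 45 TGF beta and BMP genes, 3 were called higher and 1 lower (8.89%, beside 3.01% of all genes), and 24 were close (median -0.18). Gdf15 was given above. Fst, follistatin, which neutralizes activin and myostatin, had 356 counts with calcifediol, 1064 with calcitriol, 1058 with olanzapine alone and 1242 with vehicle, at -1.53 (-1.71 to -1.36). Calcifediol was the low library, and the other 3 were alike. Inhbb, the activin beta B subunit that follistatin binds, had 392 counts with calcifediol, 201 with calcitriol, 555 with olanzapine alone and 574 with vehicle, at 1.01 (0.76 to 1.26). Here calcitriol was the low library. Tgfbr3, betaglycan, had 218 counts with calcifediol and 109 with calcitriol.

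For insulin-like growth factors, 1 of 14 was called higher and 2 lower (21.4%, beside 3.01% of all genes), and 8 were close (median -0.05). Igfbp3, the main carrier, had 764 counts with calcifediol, 1645 with calcitriol, 562 with olanzapine alone and 493 with vehicle, at -1.06 (-1.19 to -0.94). Igfbp4, a carrier that blocks the growth factor, had 1188 counts with calcifediol, 590 with calcitriol, 181 with olanzapine alone and 168 with vehicle, at 1.05. Pappa, the protease that cleaves this carrier, had 8 counts with calcifediol, 26 with calcitriol, 156 with olanzapine alone and 174 with vehicle. Igf1 had 2383 counts with calcifediol, 4300 with calcitriol, 834 with olanzapine alone and 1000 with vehicle, at -0.81 (-0.88 to -0.73), short of 2-fold, and Igfbp5, the carrier with the most counts, had 98088 counts with calcifediol, 84424 with calcitriol, 27470 with olanzapine alone and 32632 with vehicle and was close. Of 39 Wnt genes, 1 was called higher and 3 lower (10.3%, beside 3.01% of all genes), with 15 close (median -0.14). Rspo2, which strengthens Wnt signals, had 160 counts with calcifediol, 56 with calcitriol, 12 with olanzapine alone and 9 with vehicle, at 1.55 (1.11 to 2.03). Sfrp5, a Wnt inhibitor, had no count with calcifediol and 31 with calcitriol, which makes it at least 10.02-fold higher with calcitriol when 3 counts are taken as the floor of a library, and it had no count in the libraries without a metabolite. Wnt7b had 18 counts with calcifediol, 64 with calcitriol, 317 with olanzapine alone and 272 with vehicle, and Wif1, another inhibitor, had 4 counts with calcifediol and 23 with calcitriol.

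Cell cycle genes leaned to the lower side with calcifediol, nearly all of them short of 2-fold. Of 34 mitosis genes, 1 (2.94%, beside 3.01% of all genes) was called, Kif11, and 6 were close, but all 34 ratios were below zero, 33 with the whole interval, and the median was -0.57 beside 0.00 over all genes. Summed over the 34 genes, the counts were 12123 with calcifediol, 18827 with calcitriol, 36985 with olanzapine alone and 38424 with vehicle. Kif11, the kinesin that separates the spindle poles, had 161 counts with calcifediol, 336 with calcitriol, 687 with olanzapine alone and 700 with vehicle, at -1.01 (-1.30 to -0.74), and was no longer called on TPM (-0.95). Mki67, the proliferation marker Ki-67, had 854 counts with calcifediol, 1632 with calcitriol, 3686 with olanzapine alone and 4255 with vehicle, at -0.89 (-1.01 to -0.77). Top2a, which untangles replicated DNA, had 778 counts with calcifediol, 1458 with calcitriol, 2862 with olanzapine alone and 3169 with vehicle, at -0.86 (-0.99 to -0.73). Kif4, a chromosome kinesin, had 147 counts with calcifediol, 269 with calcitriol, 588 with olanzapine alone and 618 with vehicle, at -0.82 (-1.13 to -0.53). When scaled to Rplp0, Mki67, Top2a and Kif4 were called lower too.

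Of 38 genes for DNA replication and S phase, none was called, 12 were close, 35 ratios were below zero and the median was -0.49, with summed counts of 13548 with calcifediol, 19208 with calcitriol, 32692 with olanzapine alone and 34148 with vehicle. E2f8, a repressor of the E2F family, had 600 counts with calcifediol, 1185 with calcitriol, 1760 with olanzapine alone and 1815 with vehicle, at -0.94 (-1.08 to -0.79). In both lists calcitriol lay below olanzapine alone and vehicle, and calcifediol below calcitriol. Among 21 CDK inhibitors, D cyclins and relatives, 1 was called lower and 19 were close. Cdkn1a, the inhibitor p21 that holds myotubes out of the cycle, was close with 21216 counts with calcifediol, 20052 with calcitriol, 24513 with olanzapine alone and 26236 with vehicle, and the lower gene, the inhibitor Cdkn1c, had 15 counts with calcifediol, 52 with calcitriol, 141 with olanzapine alone and 206 with vehicle.

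The cell cycle homology region, TTTGAA on either strand, through which the DREAM complex keeps mitosis genes off in resting cells, stood in 22 of 29 promoters of mitosis genes (75.9%), beside 14.2% of those of all tested genes. In the replication list it stood in 6 of 32 (18.8%). The promoters shown are those of the mitosis genes with the lowest ratios that held a match upstream of the start, with the match in capitals. They lie at chr19:37376338-37376381 (plus strand), chr7:135716447-135716520 (minus strand) and chr11:99024190-99024393 (minus strand) of GRCm38.p6, and the Kif11 match and the second Top2a match read on the opposite strand.
Kif11: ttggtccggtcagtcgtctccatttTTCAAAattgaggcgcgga
Mki67: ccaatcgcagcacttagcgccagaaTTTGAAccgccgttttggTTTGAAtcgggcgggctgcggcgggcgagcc
Top2a: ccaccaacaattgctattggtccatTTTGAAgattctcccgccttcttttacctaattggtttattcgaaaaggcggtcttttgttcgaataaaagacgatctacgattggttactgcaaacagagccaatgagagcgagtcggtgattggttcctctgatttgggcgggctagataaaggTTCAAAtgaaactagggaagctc

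The muscle programme was close in most members. Of 18 myogenic factors and fusion genes, none was called and 16 were close (88.9%, beside 72.4% of all genes), at a median of -0.03. Mymk, the fusion protein myomaker, had 15813 counts with calcifediol, 16344 with calcitriol, 16385 with olanzapine alone and 17550 with vehicle, at 0.00 (-0.03 to 0.03). Ncam1 and Cdh15, adhesion molecules of fusing myoblasts, were close at -0.26 and -0.05. Of 50 sarcomere and striated muscle genes, 2 were called lower, none higher and 39 were close, but 41 ratios were below zero (median -0.23). Mb, myoglobin, had 4228 counts with calcifediol, 9322 with calcitriol, 5922 with olanzapine alone and 6528 with vehicle, at -1.10 (-1.15 to -1.04), with olanzapine alone and vehicle in between. Myl3, the ventricular and slow light chain, had 5 counts with calcifediol, 65 with calcitriol, 2 with olanzapine alone and 2 with vehicle, at -3.53 (-5.33 to -2.36), and was high only in the calcitriol library. Myh2, a fast myosin heavy chain, had 347 counts with calcifediol, 687 with calcitriol, 587 with olanzapine alone and 602 with vehicle, at -0.94 (-1.13 to -0.75). Acta1, the skeletal alpha-actin, leaned the other way and was close with 144053 counts with calcifediol, 121899 with calcitriol, 125297 with olanzapine alone and 120754 with vehicle, at 0.29. Des, desmin, was close at -0.01 and Myh3, the embryonic myosin heavy chain, at -0.44.

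Several basic functions were at the same level within the limits set for a close gene. All 80 cytosolic ribosomal protein genes tested were close, with ratios from -0.33 to 0.36 and a median of 0.10. Of 80 nuclear genes of oxidative phosphorylation, none was called and 78 were close (median 0.09). Atp5b, a subunit of ATP synthase, had 31119 counts with calcifediol, 28995 with calcitriol, 25712 with olanzapine alone and 27611 with vehicle, at 0.15 (0.12 to 0.17), and Cox8b, a muscle isoform of cytochrome oxidase, had the largest difference at 0.51. Of 22 genes of fatty acid oxidation, 20 were close (median 0.09), with Hadha at -0.06 and Acadl at 0.12. Among genes with 104 or more counts together, 80 of 80, 78 of 80 and 20 of 21 of these lists were close, in this order, beside 80.3% of all genes with that depth.

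Of 31 genes of glycolysis and hypoxia, 1 was called higher and 24 were close (median 0.14). That gene was Ero1l, an oxidase of the endoplasmic reticulum, with 754 counts with calcifediol and 387 with calcitriol, while Gapdh, with the most counts, had 142105 counts with calcifediol and 119428 with calcitriol and was close at 0.30. Of 38 lysosome and autophagy genes none was called and 34 were close, yet 35 ratios were above zero, 30 with the whole interval (median 0.21, and -0.05 when scaled to Rplp0). Sqstm1, the autophagy receptor p62, had 16815 counts with calcifediol, 9581 with calcitriol, 8136 with olanzapine alone and 7785 with vehicle, at 0.86 (0.82 to 0.89). Of 18 clock genes 15 were close (83.3%, beside 72.4% of all genes) and none was called (median 0.10). Of 16 C/EBP and KLF factors 14 were close and none was called, and Cebpb, a factor of stress and adipogenesis, had 2540 counts with calcifediol, 1522 with calcitriol, 1104 with olanzapine alone and 860 with vehicle, at 0.78 (0.69 to 0.88). Among 21 nuclear receptors 16 were close and 1 was called higher, Esrrg, an oestrogen-related receptor, with 48 counts with calcifediol, 5 with calcitriol, 4 with olanzapine alone and 4 with vehicle. Of 27 AP-1 and immediate early genes none was called and 15 were close (55.6%, beside 72.4% of all genes), with Atf3 at 0.96, Nr4a1 at 0.93 and Cyr61 at -0.92.

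Of 24 genes for insulin signalling and glucose uptake, 19 were close and Trib3 was the 1 called (median 0.03). Irs1, the insulin receptor substrate, had 1014 counts with calcifediol, 1704 with calcitriol, 1604 with olanzapine alone and 1814 with vehicle, at -0.70 (-0.82 to -0.59), and Hk2, a hexokinase, 1516 counts with calcifediol, 828 with calcitriol, 701 with olanzapine alone and 803 with vehicle, at 0.92 (0.79 to 1.04). Of 23 genes for triglyceride storage and lipolysis, 1 was called higher and 14 were close (60.9%, beside 72.4% of all genes; median 0.16). Fabp4, a fatty acid carrier of adipocytes, had 86 counts with calcifediol, 40 with calcitriol, 0 with olanzapine alone and 0 with vehicle, and Lpl, lipoprotein lipase, 3496 counts with calcifediol, 1852 with calcitriol, 258 with olanzapine alone and 236 with vehicle, at 0.96 (0.88 to 1.04). Both genes stood far above the libraries without a metabolite in either co-treated library. The summed adipocyte markers, nearly all of them counts of 1 gene as given above, ran the other way between the metabolites. Their part was not tested. Among 24 calcium, phosphate and mineralization genes 14 were close (58.3%, beside 72.4% of all genes), 1 was called higher and 1 lower (median 0.00). Bglap2, an osteocalcin, had 216 counts with calcifediol, 79 with calcitriol, 60 with olanzapine alone and 69 with vehicle, Pth1r, the parathyroid hormone receptor, had 24 counts with calcifediol, 64 with calcitriol, 29 with olanzapine alone and 25 with vehicle, and Spp1, osteopontin, was close with 30970 counts with calcifediol, 28362 with calcitriol, 13595 with olanzapine alone and 14351 with vehicle. Of 25 ABC transporters 1 was called lower, Abcg8, a sterol exporter, with 13 counts with calcifediol, 56 with calcitriol, 27 with olanzapine alone and 26 with vehicle, and 19 were close.

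The genes with the largest ratios at a TPM of 5 or more included further names with no list. Car6, a secreted carbonic anhydrase, had 106 counts with calcifediol, 5 with calcitriol, 2 with olanzapine alone and 2 with vehicle, at 4.32 (3.18 to 6.10). Cdsn, corneodesmosin, an adhesion protein of the skin, had 466 counts with calcifediol, 53 with calcitriol, 27 with olanzapine alone and 29 with vehicle, at 3.17 (2.77 to 3.62). Ankrd55 had 1322 counts with calcifediol, 314 with calcitriol, 8 with olanzapine alone and 22 with vehicle, at 2.12 (1.94 to 2.30). Pi15, a secreted protein of the CRISP family, had 1520 counts with calcifediol, 428 with calcitriol, 78 with olanzapine alone and 85 with vehicle, at 1.87 (1.72 to 2.03). In Ankrd55 and Pi15 the calcitriol library was also well above the libraries without a metabolite, as it was for Cyp2f2. Npcd had the largest ratio of all by this rule, with 311 counts with calcifediol, 10 with calcitriol, 313 with olanzapine alone and 547 with vehicle. It overlaps Nptxr on chromosome 15, with the same first coordinate, and Nptxr had 299 counts with calcifediol, 639 with calcitriol, 784 with olanzapine alone and 697 with vehicle. The sum of both was 610 counts with calcifediol, 649 with calcitriol, 1097 with olanzapine alone and 1244 with vehicle, a ratio of -0.04 (-0.21 to 0.12), so the split of reads between these models is uncertain.

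On the lower side, calcitriol was the highest of the 4 libraries in several genes. Tinagl1, a matrix glycoprotein, had 53 counts with calcifediol, 398 with calcitriol, 19 with olanzapine alone and 22 with vehicle, at -2.85 (-3.31 to -2.45). Pacsin1, a membrane-bending protein, had 181 counts with calcifediol, 822 with calcitriol, 256 with olanzapine alone and 257 with vehicle, at -2.14 (-2.38 to -1.90). Aldh3b2 had 43 counts with calcifediol, 239 with calcitriol, 9 with olanzapine alone and 25 with vehicle and Aldh3b3 42 counts with calcifediol, 190 with calcitriol, 52 with olanzapine alone and 47 with vehicle, and these overlapping neighbours on chromosome 19 may share reads. Cited1, a transcriptional coregulator, had 18 counts with calcifediol, 92 with calcitriol, 6 with olanzapine alone and 8 with vehicle, and Hbq1a, a globin, 6 counts with calcifediol, 26 with calcitriol, 2 with olanzapine alone and 1 with vehicle. In the others calcifediol was the lowest of the 4 libraries. Insc, which orients the spindle, had 74 counts with calcifediol, 456 with calcitriol, 453 with olanzapine alone and 458 with vehicle, at -2.57 (-2.95 to -2.22). Adamtsl2, a matrix protein that binds fibrillin, had 114 counts with calcifediol, 482 with calcitriol, 478 with olanzapine alone and 568 with vehicle, at -2.03 (-2.34 to -1.74). Trabd2b, which cleaves Wnt proteins, had 281 counts with calcifediol, 1264 with calcitriol, 2185 with olanzapine alone and 2270 with vehicle, at -2.12 (-2.32 to -1.94). Gja5, a gap junction connexin, had 68 counts with calcifediol, 395 with calcitriol, 696 with olanzapine alone and 841 with vehicle, at -2.48 (-2.89 to -2.12). In Trabd2b and Gja5 calcitriol lay between calcifediol and the libraries without a metabolite.

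Beside C2C12 cells, the same pair of treatments gave 79 called genes of 11804 (0.669%) in adipocytes and 77 of 10963 (0.702%) in hepatocytes. The 20 cholesterol synthesis enzymes had a median log2 ratio of -0.70 in C2C12 cells, -0.10 in adipocytes and 0.09 in hepatocytes, with none called in the primary cells. The NRF2 list had medians of 0.34, 0.16 and 0.16 in C2C12 cells, adipocytes and hepatocytes, and the ATF4 list 0.34, 0.20 and 0.05. Mt2 was at 3.03 in C2C12 cells, 0.32 in adipocytes and 0.27 in hepatocytes, and Hmox1 at 1.21, 0.77 and 0.39 in the same order. The differences between cell types were not tested, since each cell type has 1 library a treatment.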

How the data were processed

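RNA from 12 cultures, 1 library for each of 4 treatments in C2C12 myotubes, adipocytes and hepatocytes, was sequenced on a DNBseq instrument after poly(A) selection. Per the labels and methods, the authors cleaned the reads, mapped them to GRCm38.p6 with HISAT and Bowtie2 and deposited RSEM expected counts, with FPKM beside them. The authors' expected counts were rounded to whole numbers here and scaled to the library totals, with a pseudocount of 0.5, and the deposited FPKM were rescaled to TPM only for the filter of 1 TPM and as an alternative. The 12 deposited TPM columns were not used, because a pair of column names in the C2C12 table coincide. Gene numbers matched the RefSeq table for 16800 of 16908 C2C12 genes, and 24 symbols altered by a spreadsheet were restored.

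The log2 ratio has an exact Clopper-Pearson 95% interval of the 2 counts, which covers counting error only. Calls used a 2-fold limit and a two-sided Audic-Claverie test with Benjamini-Hochberg adjustment (FDR 0.05). The procedure was tried on simulated counts that held counting error only and no variation between cultures, so that trial does not cover such variation. With 1 library a treatment, replicate error could not be estimated. Named were Cyp24a1, Vdr, Insig2 and cholesterol synthesis genes of the study, up to 15 called genes a direction with the largest ratios at 5 TPM or more (no predicted or histone genes), up to 4 members of each list with the largest ratios, and up to 3 close members with the most counts. Other names were chosen after their values were seen. The members and lists were chosen with earlier results of these data known. Some genes are not reported here. Promoter windows (250 bases before to 50 after each start) came from RefSeq, with 9681 of the tested genes matched. Alternatives were TMM factors (edgeR 4.0.16), median-of-ratios size factors (DESeq2 1.42.0), FPKM rescaled to TPM, Rplp0, other pseudocounts, filters and limits. Python 3.11.15 with numpy 2.4.6, scipy 1.17.1 and pandas 2.3.3, and R 4.3.3, were used.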

Additional observations from a re-analysis of the deposited data

Results flagged for a closer look

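C3 had a log2 ratio of calcifediol over calcitriol of 1.63 in C2C12 cells, against -0.38 in adipocytes and -0.28 in hepatocytes, so it ran the opposite way in the primary cells. Genes of cholesterol synthesis and sterol sensing that were lower with calcifediol in C2C12 cells had small positive ratios in hepatocytes. Insig1 was at -1.26 in C2C12 cells and 0.21 in hepatocytes, Idi1 at -1.12 and 0.29, Nsdhl at -1.13 and 0.0948, Cyp51 at -1.08 and 0.0610, Hmgcs1 at -1.05 and 0.11, and Fdps at -1.02 and 0.14, each in this order of cells. These opposite directions rest on 1 library a treatment in each cell type, and the differences between cell types were not tested.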

How the results depend on the processing

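Against 152 genes called higher and 213 lower, scaling to Rplp0 gave 96 and 446, a filter of 10 TPM 50 and 67, a limit of 1.5-fold 389 and 544, an FDR of 0.001 101 and 139, and a whole 95% interval past 2-fold 62 and 67. Distinct list members called higher, 39, became 27 under Rplp0, 22 at 10 TPM, 80 at 1.5-fold and 22 with the whole interval. Those called lower, 41, became 86 under Rplp0, 24 at 10 TPM, 119 at 1.5-fold and 23 with the whole interval. Of the cholesterol synthesis enzymes, 6 called lower became 9 under Rplp0 (Fdft1, Hsd17b7 and Msmo1 were added), 12 at 1.5-fold and 1 with the whole interval. Close genes, 8775, became 5062 under the stricter limit tried. Rplp0 scaling moves every gene by -0.26, and the medians of these lists turned negative: ABC transporters to -0.13, CDK inhibitors and D cyclins to -0.13, ER chaperones to -0.0218, MHC class I to -0.0711, complement to -0.15, ribosomal proteins to -0.16, glycolysis to -0.12, interferon-stimulated genes to -0.0619, lysosome to -0.0472, nuclear receptors to -0.11, triglyceride storage to -0.11, AP-1 genes to -0.24, calcium genes to -0.26, clock genes to -0.16, fatty acid oxidation to -0.18, inflammatory cytokines to -0.23, insulin signalling to -0.23, matrix proteases to -0.25 and oxidative phosphorylation to -0.18. With no filter the median of sterol sensing turned to 0.12. The cause was not tested beyond the settings' own construction. TMM factors gave 147 higher and 220 lower and median-of-ratios size factors 148 and 218. Of 50 single genes run under these settings, Hmox1 lost its call under Rplp0 (0.95), Kif11 with TPM (-0.95) and with a pseudocount of 5 (-0.99), and Clu with TPM (-0.99). No paired analysis was possible because each condition has 1 library, and for the same reason no replicate could be left out. Depth limits the genes with fewer than 104 counts in both libraries together, which could not be close.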

Other observations

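Further single genes, chosen after their values were seen, lay outside the lists described. Nppa, the atrial natriuretic peptide, had no count with calcifediol, 30 with calcitriol, none with olanzapine alone and 1 with vehicle, so it was at least 9.69-fold higher with calcitriol at a floor of 3 counts a library. Pln, phospholamban, which restrains the calcium pump of the sarcoplasmic reticulum, had 2 counts with calcifediol, 80 with calcitriol, 2 with olanzapine alone and 1 with vehicle. Mylk3, a cardiac myosin light chain kinase, had 47 counts with calcifediol, 114 with calcitriol, 7 with olanzapine alone and 9 with vehicle. Myh6, the alpha cardiac myosin heavy chain, had 480 counts with calcifediol, 1002 with calcitriol, 377 with olanzapine alone and 307 with vehicle.

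Ephx1, the microsomal epoxide hydrolase, had 6273 counts with calcifediol, 3087 with calcitriol, 3551 with olanzapine alone and 3690 with vehicle. Ugt1a6a, a glucuronosyltransferase whose locus holds overlapping isoforms, had 341 counts with calcifediol, 137 with calcitriol, 59 with olanzapine alone and 55 with vehicle. Cbs and Cth, the enzymes of transsulfuration that lead to cysteine, had 124 counts with calcifediol, 48 with calcitriol, 2 with olanzapine alone and 0 with vehicle and 168 counts with calcifediol, 78 with calcitriol, 57 with olanzapine alone and 35 with vehicle, in this order. In Cbs and Cth the calcitriol library was itself above olanzapine alone and vehicle. Bhmt, which remethylates homocysteine, ran the other way with 198 counts with calcifediol, 483 with calcitriol, 0 with olanzapine alone and 0 with vehicle. Ahr, the aryl hydrocarbon receptor, had 134 counts with calcifediol, 377 with calcitriol, 471 with olanzapine alone and 504 with vehicle, with calcifediol the lowest of the 4 libraries.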
